A study of Mus musculus with 7 samples.

Results

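The genes described here are 35 genes of megakaryocytes and platelets, taken by name from a list, out of 53458 genes summed from transcripts. After a filter on low counts 34 of them were among the 20314 genes tested, and Pdgfa was not. RNA came from LT-HSCs, the long-term haematopoietic stem cells of the marrow, of aged C57/BL6 mice. The sort kept cells that lacked Ter119, B220, CD3, Mac1, Gr1, Flt3 and CD48 and carried Sca1, cKit and CD150. The groups were 4 wild-type mice (Srp72+/+, called WT) and 3 heterozygous mice (Srp72+/-), each mouse giving 1 library, and the comparison asks what the loss of an Srp72 allele does to expression in these cells. Srp72 encodes a subunit of the signal recognition particle. The sources used here do not give the kind of Srp72 allele, the exact ages or any treatment of the mice.

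Megakaryocytes are the large marrow cells that shed platelets. Platelets carry adhesion receptors that bind von Willebrand factor, fibrinogen and collagen at a wound, receptors that sense thrombin, and granules that release clotting and growth factors. Part of the programme is also found in stem cells: a share of LT-HSCs carries von Willebrand factor transcripts, gives rise mainly to platelets and becomes more frequent with age. Other genes of the programme, such as those of platelet factor 4 and the glycoprotein Ib-IX-V complex, are known for their high levels in maturing megakaryocytes. In RNA from a pool of sorted cells, fewer cells of a type and less RNA per cell cannot be told apart.

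Promoter stretches are printed for 6 members, each the 150 bases before the RefSeq transcription start on GRCm38.p6, read 5′ to 3′ on the strand of the gene. Mmrn1 (chr6:60944167-60944316, plus strand) and Selp (chr1:164115114-164115263, plus strand) were the most abundant members that varied with stem cell genes, as described below. Plek (chr11:17008719-17008868, minus strand) and Nbeal2 (chr9:110654162-110654311, minus strand) were the most abundant of the remaining members in the promoter table. Pf4 (chr5:90772285-90772434, plus strand) and Gp5 (chr16:30310782-30310931, minus strand), which stood out in 1 library, were added after their values were seen. Capitals mark AGATAA, letters known as a binding motif of GATA factors, and GGAA, the core letters of ETS factor motifs, on either strand (TTATCT and TTCC on the other). No match of one motif overlaps a match of the other in these stretches.
Mmrn1: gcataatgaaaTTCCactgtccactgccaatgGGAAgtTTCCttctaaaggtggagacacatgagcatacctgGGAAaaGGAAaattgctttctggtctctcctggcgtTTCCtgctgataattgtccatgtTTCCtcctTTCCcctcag
Selp: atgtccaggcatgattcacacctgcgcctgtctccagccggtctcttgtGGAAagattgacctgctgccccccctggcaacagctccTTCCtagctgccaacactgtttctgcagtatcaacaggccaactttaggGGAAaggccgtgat
Plek: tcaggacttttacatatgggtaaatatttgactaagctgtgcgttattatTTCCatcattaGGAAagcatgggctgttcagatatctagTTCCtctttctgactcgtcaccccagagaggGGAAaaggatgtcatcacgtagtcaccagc
Nbeal2: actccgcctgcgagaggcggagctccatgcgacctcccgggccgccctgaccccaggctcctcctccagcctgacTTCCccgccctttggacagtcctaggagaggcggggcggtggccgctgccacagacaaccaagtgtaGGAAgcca
Pf4: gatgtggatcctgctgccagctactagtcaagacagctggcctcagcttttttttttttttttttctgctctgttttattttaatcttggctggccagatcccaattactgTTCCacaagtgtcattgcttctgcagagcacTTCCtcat
Gp5: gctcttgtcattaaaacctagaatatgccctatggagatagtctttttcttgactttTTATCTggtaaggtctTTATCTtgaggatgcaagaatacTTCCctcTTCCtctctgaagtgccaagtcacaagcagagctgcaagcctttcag

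The Mmrn1 stretch held 8 GGAA matches and the Gp5 stretch held 2 AGATAA matches, the nearer at position -77 from the start. Of the 35 members, 27 had a promoter in the RefSeq table (not Itgb3, Cd226, Vwf, Thbs1, Rab27b, Bin2, Tgfb1i1 and Nfe2). AGATAA was present in 4 of these 27 (F2rl2, Gp5, Gp6 and Mpp1) and in 5.65% of all 32851 promoter windows of this length. GGAA was present in 27 of 27, against 80.8% of all windows. The member counts are of genes, which had 29 windows between them, whereas the percentages are of single windows. These are matches of letters and say nothing of binding, and the RefSeq starts of Mmrn1 and Plek lie apart from the starts of the genes in the GENCODE annotation used for counting.

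The libraries held between 18054322 and 35247472 estimated reads, with Srp72+/- 3 the deepest, and values are given as CPM (reads per fixed total, with TMM factors between libraries) unless stated. A count of 3 reads, taken as the floor, equals between 0.091 and 0.192 CPM. WT 2 went against its cell label. The mean log2(CPM + 0.1) of 15 stem cell identity genes was 1.37 in WT 2 and between 5.07 and 6.33 in the other 6 libraries, and Procr, a surface marker gene of HSCs, was at 0.0639 CPM against 9.002 to 43.9 CPM. Slamf1, the gene of the sorting marker CD150, measured 4.67 CPM in WT 2 and 31.3 to 73.0 CPM elsewhere. Neutrophil, erythroid and B cell transcripts were highest in WT 2 and next highest in Srp72+/- 1: 10 neutrophil genes summed to 40048 CPM in WT 2 and 12571 CPM in Srp72+/- 1, against 124 to 8823 CPM in the other 5 libraries. The 9 erythroid genes summed to 8635 and 6296 CPM in the same 2 libraries and to 143 to 1170 CPM in the others, and the 8 B cell genes to 10276 and 4228 CPM against 56.7 to 1296 CPM. Srp72 itself measured 99.6, 136.6, 103.0 and 88.4 CPM across WT, against 71.9, 45.7 and 109.8 CPM across Srp72+/-. The library labelled Srp72+/- 3 thus lay above WT 1, WT 3 and WT 4 in the targeted gene, against its label as far as reads over the whole gene can show it, and is called Srp72+/- 3 below only by that label. The log2 fold change of Srp72 was -0.50 (standard error 0.32, edgeR adjusted p = 0.9998) and -0.87 without the library labelled Srp72+/- 3. Results are therefore given with and without WT 2 and, since it was often the highest library below, Srp72+/- 3. The latter was thus picked by the levels of the members. Leaving it out lowers, by construction, the fitted values of members highest in it.

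**Figure D1:**
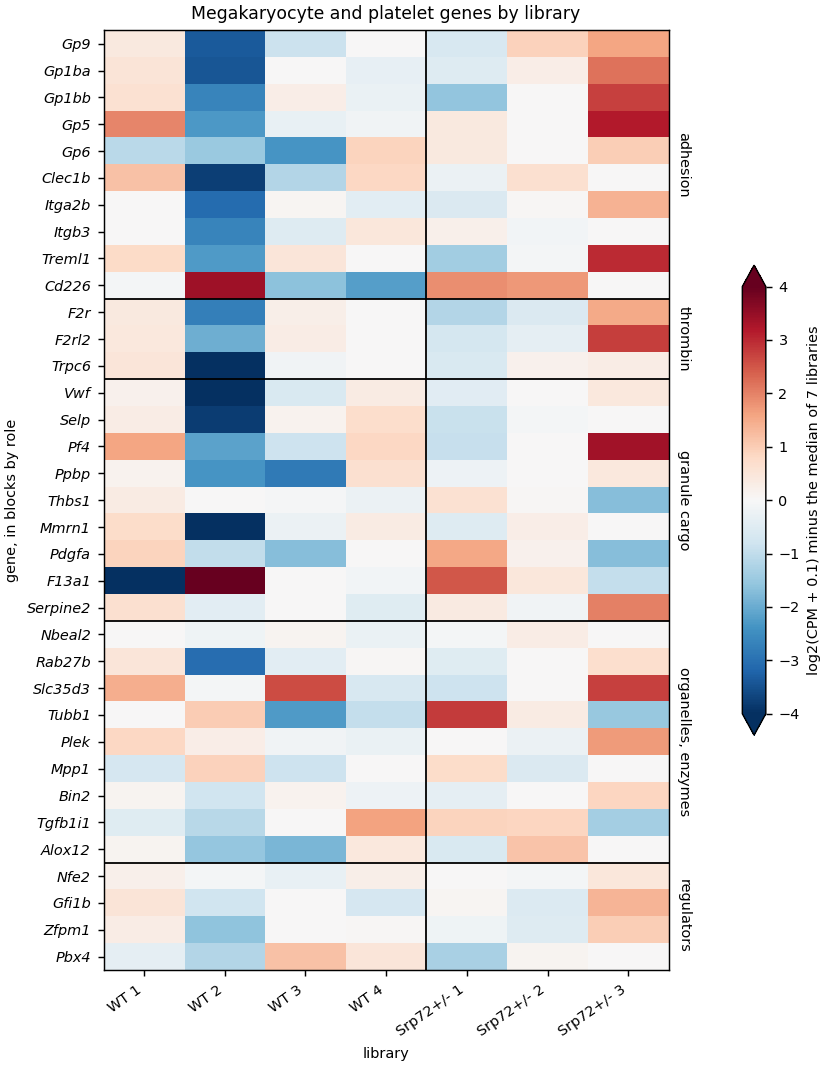
Level of each of the 35 genes (rows, in blocks by role) in each of the 7 libraries (columns), as log2(CPM + 0.1) minus the median of that gene over the libraries. The column of WT 2 is low for many receptor and granule genes and high for F13a1, Mpp1 and Cd226, and the column of Srp72+/- 3 is high for Pf4, Gp1ba, Gp1bb, Gp5, Treml1, F2r and F2rl2.

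Per unit of transcript length, the most abundant members were Pf4, Selp and Nfe2. Their median levels over the 7 libraries were 128, 94.0 and 86.9 TPM, a unit that corrects for transcript length. These values sum all transcripts of a gene. The retained-intron transcript Pf4-202, of 360 bases, held 36.0% to 60.7% of the Pf4 reads. The coding transcript of Selp held 33.0% to 66.7% of the Selp reads. The order on coding transcripts alone was not computed. Bin2, Gfi1b, Nbeal2, Vwf and Zfpm1 followed with medians of 82.2, 75.2, 73.2, 54.5 and 47.9 TPM. At the other end were Pdgfa, Cd226, Gp6 and Tubb1 with medians of 0.05, 0.10, 0.19 and 0.22 TPM. The genes of both ends overlap in role: the granule proteins hold Pf4 as well as Pdgfa, and the receptors hold Itga2b (34.99 TPM) as well as Gp6. The ranges of neighbours in this order overlapped over the libraries, and Pf4 alone ranged from 12.8 to 838.6 TPM.

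The 4 genes of the glycoprotein Ib-IX-V complex, the platelet receptor for von Willebrand factor, were lowest in WT 2 and highest in Srp72+/- 3. Gp1ba, whose product holds the ligand-binding site, measured 18.9, 1.15, 13.2 and 10.5 CPM in WT 1, 2, 3 and 4, against 9.16, 16.1 and 60.0 CPM in Srp72+/- 1, 2 and 3, the order used throughout. Gp1bb, the disulfide-linked partner chain, measured 5.21, 0.448, 4.03 and 2.79 CPM across WT, against 1.06, 3.35 and 22.8 CPM across Srp72+/-. In both genes Srp72+/- 3 lay above all other libraries, and Srp72+/- 1 and 2 lay within the range of WT. Gp5, the subunit that thrombin cleaves, measured 14.1, 0.639, 2.88 and 3.19 CPM across WT, against 4.61, 3.53 and 32.9 CPM across Srp72+/-, so that WT 1 was the second highest. Gp9, the small subunit needed to bring the complex to the surface, measured 17.4, 1.22, 7.19 and 13.3 CPM across WT, against 8.42, 25.2 and 39.7 CPM across Srp72+/-. It was the member of the complex in which Srp72+/- 2 also lay above every WT library. Gp1bb lies on chromosome 16, from 18620317 to 18622403 of GRCm38, and overlaps Sept5 on the same strand. Sept5 was highest in WT 2 (43.5 CPM) and measured 6.94 CPM in Srp72+/- 3, so the 2 genes had their highest values in different libraries.

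The fitted log2 fold changes of Srp72+/- over WT were 1.37 for Gp1ba (standard error 0.87, 95% confidence interval -0.63 to 3.38), 1.54 for Gp1bb (standard error 1.05), 1.40 for Gp5 (standard error 1.07) and 1.32 for Gp9 (standard error 0.80). None passed the edgeR quasi-likelihood test (adjusted p = 0.9998 for each). Without Srp72+/- 3 the values were 0.19, -0.51, -0.36 and 0.77, and without both WT 2 and Srp72+/- 3 they were -0.18, -0.86, -0.73 and 0.41. Gp9 averaged 9.78 ± 7.09 CPM in WT (SD, n = 4) and 24.4 ± 15.7 CPM in Srp72+/- (SD, n = 3), and the exact permutation test (two-sided) had p = 0.257. With 4 against 3 libraries this test cannot give a p below 0.0286. For Gp1ba the means were 10.96 ± 7.42 and 28.4 ± 27.5 CPM (SD) with an exact permutation p = 0.429.

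Itga2b and Itgb3 encode the 2 chains of the fibrinogen receptor, integrin αIIbβ3, and had different profiles over the libraries. Itga2b, the CD41 gene, measured 67.1, 7.80, 70.2 and 50.5 CPM across WT, against 45.3, 69.0 and 175.6 CPM across Srp72+/-. Itgb3 measured 150.7, 24.3, 104.4 and 207.5 CPM across WT, against 173.2, 140.8 and 150.7 CPM across Srp72+/-. Both were lowest in WT 2, whereas Srp72+/- 3 was 2.50 times the next library in Itga2b and lay in the middle of the libraries in Itgb3. The log2 fold change was 0.98 for Itga2b (standard error 0.70) and 0.35 for Itgb3 (standard error 0.57), and 0.01 for Itgb3 without WT 2. Without Srp72+/- 3 that of Itga2b was 0.22. Neither passed the test.

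Among the other receptors, Treml1 had a profile like that of Gp1bb. Treml1, a receptor of the α-granule membrane, measured 3.87, 0.384, 3.17 and 2.25 CPM across WT, against 0.794, 2.14 and 18.6 CPM across Srp72+/-, and its log2 fold change of 1.57 became -0.72 without Srp72+/- 3. Clec1b, the podoplanin receptor CLEC-2, had another order, with 12.6, 0.320, 2.40 and 9.94 CPM across WT, against 4.71, 8.79 and 5.55 CPM across Srp72+/-. It was highest in WT 1 and lowest in WT 2, and its log2 fold change of 0.01 turned to -0.01 with RLE scaling. Gp6, the collagen receptor gene, lay between 0.336 and 4.34 CPM in every library. Its Srp72+/- libraries measured 2.86, 2.14 and 4.34 CPM and the WT libraries 0.953, 0.703, 0.336 and 4.09 CPM, so that WT 4 alone of the WT libraries reached the range of Srp72+/-. The log2 fold change of Gp6 was 1.03 (standard error 0.84) and 2.20 without WT 4 (adjusted p = 0.9998 in the edgeR quasi-likelihood test). With an offset for the lengths of the transcripts used it was 3.00 (standard error 1.21, unadjusted p = 0.037, adjusted p = 0.9999 by edgeR). Cd226, an adhesion molecule also found on T and NK cells, was at 4.73 CPM in WT 2 and at most 1.59 CPM elsewhere. In WT 4 it was listed at 0 reads, and 6 T and NK cell genes summed to 190 CPM in WT 2 against 20.6 to 86.3 CPM in the other libraries. The part of these cells in the Cd226 value was not tested.

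**Figure D2:**
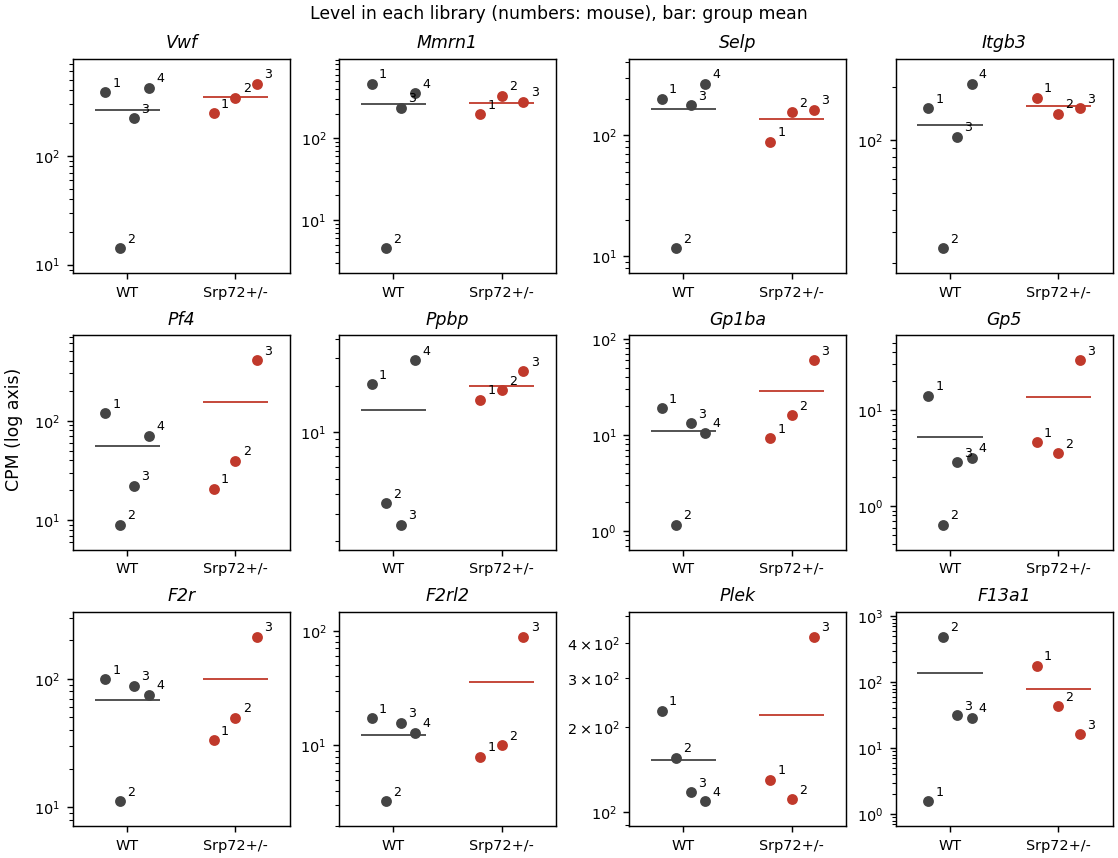
CPM on a log axis of selected genes in each library, with WT and Srp72+/- side by side, points numbered by mouse and a bar at the group mean. WT 2 is the lowest point in every panel but Ppbp, Plek and F13a1, and Srp72+/- 3 is the highest in Pf4 (405 CPM) and Gp1ba (60.0 CPM).

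Both thrombin receptor genes among the members were lowest in WT 2 and highest in Srp72+/- 3. A further gene of this family, F2rl3, was not a member. In F2rl3 the library Srp72+/- 3 was not at least 2-fold above every other library. F2rl2, the gene of PAR3, measured 17.3, 3.26, 15.8 and 12.9 CPM across WT, against 7.94, 9.996 and 88.9 CPM across Srp72+/-, so that Srp72+/- 3 was 5.15 times the next library. This was the widest such gap among the members. F2r, the gene of PAR1, measured 99.7, 11.1, 88.5 and 75.3 CPM across WT, against 33.4, 49.9 and 213 CPM across Srp72+/-. In F2r the 2 remaining Srp72+/- libraries lay below WT 1, WT 3 and WT 4 and above WT 2. Accordingly the log2 fold change of F2r was 0.53 (standard error 0.80) in all libraries, -0.73 without Srp72+/- 3 and -1.08 (standard error 0.26) without WT 2 and Srp72+/- 3. The last had an unadjusted p = 0.0036 and an adjusted p = 0.533 in the edgeR quasi-likelihood test. F2rl2 had a log2 fold change of 1.53 (standard error 0.89), and -0.46 without Srp72+/- 3. F2rl2 lies inside Iqgap2 on the opposite strand, and the sources used here do not give the strand setting of the counting. Iqgap2 measured 175.7 to 252.9 CPM over the libraries and 203.7 CPM in Srp72+/- 3, near its middle.

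Trpc6, a cation channel gene, had a narrower range than the thrombin receptors once WT 2 was set aside. It measured 86.6, 2.05, 55.3 and 61.4 CPM across WT, against 40.0, 69.8 and 74.9 CPM across Srp72+/-. Apart from WT 2 the highest library was 2.17 times the lowest. The log2 fold change was 0.26 with all libraries (standard error 0.87) and -0.14 without WT 2.

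Of the granule and secreted proteins, Vwf, Selp and Mmrn1 were abundant in every library except WT 2. Vwf, the gene of von Willebrand factor and the marker by which platelet-biased HSCs are known, measured 385, 14.1, 222 and 424 CPM across WT, against 247, 341 and 460 CPM across Srp72+/-. Selp, the gene of P-selectin, measured 200.1, 11.6, 177 and 267 CPM across WT, against 88.4, 155 and 162 CPM across Srp72+/-. Mmrn1, multimerin 1, a carrier of factor V in platelet granules, measured 462, 4.48, 237 and 352 CPM across WT, against 196, 331 and 278 CPM across Srp72+/-. Each level in WT 2 was a small part of the median of the other WT libraries: 0.037 for Vwf, 0.058 for Selp and 0.013 for Mmrn1. Away from WT 2 the spread was narrower, with the highest library 2.07, 3.02 and 2.35 times the lowest. Vwf averaged 261 ± 187 CPM in WT (SD, n = 4) and 349 ± 107 CPM in Srp72+/- (SD, n = 3), a log2 fold change of 0.42 (95% confidence interval -1.49 to 2.33) that was 0.03 without WT 2. The value for Mmrn1 was 0.03, and -0.38 without WT 2. Selp had -0.28, and -0.66 (standard error 0.28) without WT 2, where all 3 Srp72+/- libraries lay below all 3 WT libraries. That value did not pass (edgeR quasi-likelihood test, unadjusted p = 0.0439, adjusted p = 0.977), and without WT 4 the sign turned (0.05).

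Vwf and Selp are also genes of endothelial cells. The 7 endothelial genes on the list summed to 7.61 to 85.2 CPM in WT and 43.7 to 91.2 CPM in Srp72+/-, with the lowest sum in WT 2. Most of that was Tie1 (3.77 to 66.6 CPM), Kdr and Emcn. Cdh5, the gene of VE-cadherin, was at 0.030 to 1.25 CPM, Plvap was below 1 CPM in all libraries, and Emcn was at 0 in WT 2, Flt4 in WT 4 and Stab2 in WT 3.

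Pf4, a chemokine gene of platelet α-granules, had its highest library 19.5 times its lowest even with WT 2 set aside. It measured 119, 9.02, 22.4 and 70.5 CPM across WT, against 20.8, 39.8 and 405 CPM across Srp72+/-. Srp72+/- 3 was 3.40 times WT 1, the next library, whereas Srp72+/- 1 was below WT 3. The means were 55.2 ± 50.1 CPM (SD, n = 4) and 155 ± 217 CPM (SD, n = 3), with an exact permutation p = 0.571. A log2 fold change of 1.49 (95% confidence interval -1.06 to 4.04) became -0.88 without Srp72+/- 3.

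Ppbp, which encodes the related chemokine of the same granules, is the neighbour of Pf4 on chromosome 5, with 2.37 kb between them, but did not share its profile. It measured 20.3, 3.52, 2.54 and 29.1 CPM across WT, against 16.3, 18.6 and 24.8 CPM across Srp72+/-. Ppbp was highest in WT 4 and in Srp72+/- 3 was 0.850 of that level. On the TPM scale, Pf4 exceeded Ppbp 33.5, 12.7, 51.4 and 14.2 times in WT and 8.02, 11.4 and 88.2 times in Srp72+/-. Of the 7 ratios, that of Srp72+/- 3 was the highest and that of Srp72+/- 1 the lowest. The same ratio of Pf4 to Vwf was 4.78, 14.6, 1.40 and 2.41 in WT and 1.35, 1.998 and 15.4 in Srp72+/-. It was thus high in both libraries that stood apart, with both genes low in WT 2 and with a high Pf4 level in Srp72+/- 3.

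The other secreted proteins showed no shared order. Serpine2, the gene of protease nexin 1, an inhibitor of thrombin, measured 19.8, 9.40, 12.7 and 9.13 CPM across WT, against 16.4, 11.6 and 51.7 CPM across Srp72+/-. Among the members it had the smallest unadjusted p in the edgeR quasi-likelihood test (0.088; log2 fold change 1.06, standard error 0.55, adjusted p = 0.9998). Without Srp72+/- 3 its log2 fold change was 0.12. Thbs1, thrombospondin 1, ran the other way in that library, with 36.4, 28.8, 27.7 and 24.3 CPM across WT, against 44.3, 29.99 and 8.89 CPM across Srp72+/-. F13a1, the gene of the factor XIII A chain that monocytes and macrophages express as well, spanned 1.57, 493, 31.4 and 29.1 CPM across WT, against 178, 43.0 and 16.1 CPM across Srp72+/-. WT 2 and Srp72+/- 1 were highest, and in the same 2 libraries the 6 monocyte and macrophage genes had their highest sums, 158 and 64.7 CPM, against 2.24 to 38.7 CPM. The part of such cells in the F13a1 value was not tested. Its log2 fold change was -0.81 (standard error 1.54) and 1.93 without WT 2. Pdgfa, the growth factor chain, was at 0 to 0.847 CPM and was not tested.

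Genes for building granules and the cytoskeleton split into steady and variable members. Nbeal2, the gene behind gray platelet syndrome, was among the steadiest, with 145.8, 129.1, 157.5 and 121.8 CPM across WT, against 139.4, 180.8 and 146.9 CPM across Srp72+/-. Its log2 fold change was 0.17 with a 95% confidence interval of -0.30 to 0.63, a narrow one for these libraries. Rab27b, a GTPase gene of granule secretion, measured 45.0, 3.84, 24.1 and 33.3 CPM across WT, against 23.0, 32.3 and 51.7 CPM across Srp72+/-, close to the order of Vwf. Plek, the gene of the kinase C substrate pleckstrin, measured 229, 156, 117 and 109 CPM across WT, against 130.1, 111 and 421 CPM across Srp72+/-. Here WT 2 was not low, while Srp72+/- 3 was 1.83 times the next library. Bin2, a membrane-bending adaptor gene, had 66.0 CPM in WT 2, 89.5 to 126 CPM in 5 libraries and 209.7 CPM in Srp72+/- 3. Slc35d3, a transporter gene needed for dense granules, was highest in Srp72+/- 3 and WT 3 (17.0 and 15.8 CPM) and at 1.38 to 7.06 CPM elsewhere.

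Tubb1, the β1-tubulin of the platelet rim, is a late marker that did not go with Pf4. It measured 0.616, 1.34, 0.048 and 0.270 CPM across WT, against 4.87, 0.803 and 0.152 CPM across Srp72+/-. It was highest in Srp72+/- 1, and in Srp72+/- 3, where Pf4 was highest, it rested on 5 reads. Its log2 fold change of 1.77 became -0.28 without Srp72+/- 1. Mpp1, a membrane scaffold gene that red cells also use, measured 29.3, 88.9, 26.3 and 47.4 CPM across WT, against 79.1, 31.6 and 47.2 CPM across Srp72+/-. Its 2 highest libraries, WT 2 and Srp72+/- 1, were those with the highest erythroid sums, whose part was not tested. Alox12, the platelet 12-lipoxygenase gene, was at 1.63 to 8.18 CPM in WT and 3.92 to 13.3 CPM in Srp72+/-. Tgfb1i1, the adaptor gene Hic-5, was at 1.41 to 9.94 CPM in WT and 1.18 to 5.98 CPM in Srp72+/-.

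Of the transcription factors and cofactors, Nfe2, Gfi1b and Zfpm1 had the same highest library. Nfe2, which drives the release of platelets, measured 128, 105.3, 90.5 and 130.7 CPM across WT, against 111, 105.0 and 151 CPM across Srp72+/-, with a log2 fold change of 0.11 (95% confidence interval -0.43 to 0.64). Gfi1b, a repressor gene of the erythroid and megakaryocyte lineages, measured 73.6, 29.4, 51.3 and 32.3 CPM across WT, against 54.0, 35.1 and 131 CPM across Srp72+/-. Zfpm1, the gene of the GATA1 cofactor FOG1, measured 94.3, 24.9, 76.2 and 78.1 CPM across WT, against 67.1, 52.9 and 150.3 CPM across Srp72+/-. That library was Srp72+/- 3, at 1.16, 1.78 and 1.59 times the next, and without it the log2 fold changes were -0.08, -0.07 and -0.20. Pbx4, a homeodomain factor gene, was at 1.54 to 8.15 CPM in WT and 1.38 to 3.79 CPM in Srp72+/-.

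Between them, WT 2 and Srp72+/- 3 held the extremes of most members. Srp72+/- 3 was the highest library in 19 of 34 tested members, against 18.6% of all tested genes, and WT 2 was the lowest in 19 of 34, against 27.6%. In 9 of the 34 (26.5%) Srp72+/- 3 was at least 2-fold above every other library, a pattern found in 1.42% of the 20314 tested genes: Pf4, Gp1ba, Gp1bb, Gp5, F2rl2, F2r, Itga2b, Treml1 and Serpine2. On the TPM scale there were 7 such members, against 0.950% of all genes, as Gp6 and Plek entered and Gp5, F2r, Itga2b and Serpine2 left. In 11 of the 34 (32.4%) WT 2 was at most 0.25 of every other library, against 7.73% of all genes: Vwf, Selp, Gp9, Gp1ba, Gp5, Itga2b, Itgb3, Rab27b, Mmrn1, Clec1b and Trpc6. On the TPM scale there were 15 (44.1%), against 10.4% of all genes, as Pf4, Gp1bb, F2rl2 and F2r entered. Gp1ba, Gp5 and Itga2b showed both patterns in CPM, and Pf4, Gp1ba, Gp1bb and F2rl2 in TPM. Vwf, Selp, Mmrn1, Trpc6, Itgb3, Clec1b, Gp9 and Rab27b had the second without the first in CPM. In Srp72+/- 3 the neutrophil, erythroid and B cell sums were 1185, 259 and 242 CPM and the stem cell mean was 5.40, all within the range of the other libraries. Both patterns were read from the libraries that were already known to stand apart, so they describe these 2 mice and are not a comparison of the genotypes.

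**Figure D3:**
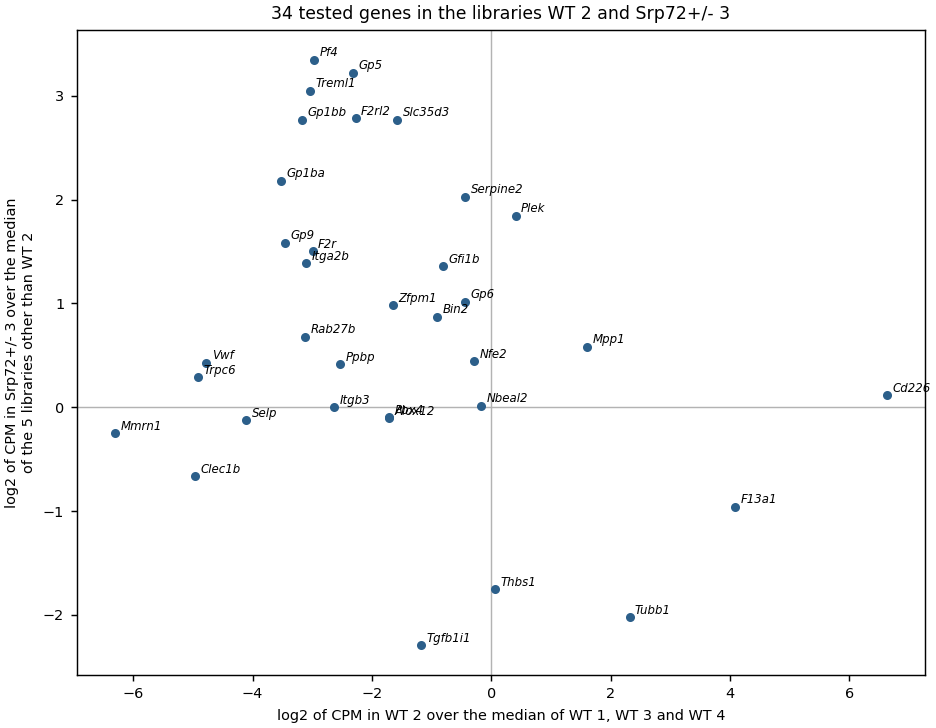
Each of the 34 tested genes by its log2 ratio in WT 2 over the median of the other WT libraries (horizontal) and its log2 ratio in Srp72+/- 3 over the median of the 5 libraries other than WT 2 (vertical). Mmrn1, Trpc6 and Vwf lie far left near the level of 0 on the vertical axis, Pf4 (10.2 times the median), Gp5 and Treml1 lie high, and F13a1 and Cd226 lie far right.

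Co-variation over the 6 libraries other than WT 2 was used to sort the members. Each was set against the mean of 15 stem cell identity genes (among them Procr, Hlf, Mecom and Fgd5) and against the mean of the late platelet genes Pf4, Ppbp, Gp9, Gp1ba, Gp1bb, Gp5, Treml1 and Tubb1, leaving itself out. The 2 means ranked the libraries differently: the stem cell mean was highest in WT 4 (6.33) and lowest in Srp72+/- 1 (5.07), and the late platelet mean ran from 1.88 in WT 3 to 4.54 in Srp72+/- 3. Tubb1, with 1 read in WT 3 and 92 reads in Srp72+/- 1, pulled the late platelet mean of WT 3 down. The lowest place of WT 3, and the r with this mean, thus depend in part on a gene near the floor. The mean without Tubb1 was not computed. Selp followed the stem cell genes with a Pearson r of 0.94 against 0.11 for the late platelet genes, and Mmrn1 with 0.75 against 0.36. Pf4 (0.92), Rab27b (0.93), Plek (0.91), Gp5 (0.90), Gp9 (0.87) and Gp1ba (0.87) had high r with the late platelet genes and r between -0.27 and 0.23 with the stem cell genes. Nfe2 (0.86) and Serpine2 (0.84) also varied with the late platelet genes. Vwf stood between, with 0.40 and 0.80, as did Trpc6 with 0.52 and 0.64. Itgb3 (0.17 and 0.22) and Nbeal2 (-0.26 and -0.02) followed neither, and Tubb1 (-0.52 and -0.36) and F13a1 (-0.52 and -0.47) ran against both.

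By the higher of the 2 correlations, 7 members were placed on the stem cell side (Selp, Mmrn1, Clec1b, Pbx4, Tgfb1i1, Thbs1 and Pdgfa) and 28 on the late platelet side. The placing says only which r was higher: Thbs1 (0.04) and Pdgfa (-0.10) had little correlation with the stem cell genes, and Nbeal2, Tubb1 and F13a1 none above 0 with the late platelet genes. The division was not stable. Over all 7 libraries 14 were on the stem cell side and 7 changed side, Vwf among them (0.97 against 0.84), with WT 2 the lowest library in both means. Without WT 2 and Srp72+/- 3, 12 were on the stem cell side and 13 changed side. Over those 5 libraries Selp had an r of 0.99 with the stem cell genes and 0.25 with the late platelet genes, Pf4 had 0.74 and 0.76, Gp1bb 0.71 and 0.16, and Treml1 0.75 and 0.11. Mmrn1 (0.77 and 0.83) and Clec1b (0.49 and 0.93) changed to the late platelet side. The r of Gp1bb and Treml1 with the late platelet genes thus rested on Srp72+/- 3. Without that library it also fell from 0.82 to 0.18 for F2rl2, 0.71 to 0.19 for F2r and 0.80 to 0.13 for Itga2b. It fell from 0.78 to 0.13 for Bin2, 0.78 to 0.24 for Zfpm1, 0.76 to 0.24 for Gfi1b and 0.84 to 0.39 for Serpine2. For Gp1ba it was then 0.53. It stayed higher in Rab27b (0.91), Vwf (0.78), Nfe2 (0.75), Gp9 (0.71), Gp5 (0.70) and Plek (0.69). These correlations are descriptions over few libraries that all members share, and carry no test.

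**Figure D4:**
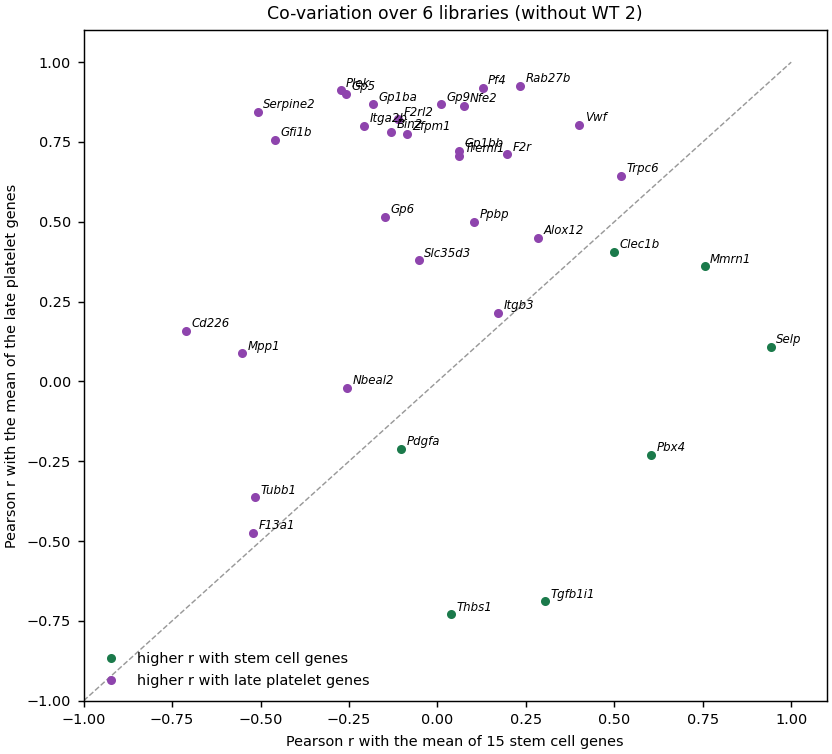
Pearson r of each of the 35 genes with the mean of 15 stem cell genes (horizontal) and with the mean of the late platelet genes (vertical) over the 6 libraries without WT 2, coloured by the higher of the 2. Selp lies at 0.94 and 0.11, Pf4 at 0.13 and 0.92, and Vwf between them at 0.40 and 0.80.

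Between the genotypes 0 of the 34 tested members passed the edgeR quasi-likelihood test at an adjusted p of 0.05, as did 0 of 20314 genes (0.0%). At an unadjusted p under 0.05 there were 365 genes and 0 members, and DESeq2 called 9 genes and 0 of the 31 members to which it gave an adjusted p. The groups did not overlap in 3.57% of all genes and in 0 of 34 members, and over 34 exact permutation tests of single members the smallest p was 0.143 (Gp6). Fitted values were higher in Srp72+/- in 29 of the 34 members (28 with RLE scaling, where Clec1b turned), against 49.3% of all tested genes, with a median log2 fold change of 0.42 against -0.01. By role, 9 of 10 adhesion receptors, 3 of 3 thrombin receptors and channel, 5 of 8 granule and secreted proteins, 9 of 9 genes of granule biogenesis, cytoskeleton and enzymes and 3 of 4 transcription factors and cofactors had higher fitted values. Their median log2 fold changes were 1.17, 0.53, 0.22, 0.41 and 0.25. The 5 members with lower fitted values were F13a1 (-0.81), Pbx4 (-0.59), Selp (-0.28), Cd226 (-0.17) and Thbs1 (-0.08).

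This direction was weaker without WT 2, weaker still without the library labelled Srp72+/- 3, and turned without both. The Srp72 level of Srp72+/- 3 lay within the range of WT, against its label only as far as reads over the whole gene can show it. Since Srp72+/- 3 was set apart as the highest library of many members, lower values without it were built in. Without Srp72+/- 3, 18 of 34 had higher fitted values with a median of 0.07, against 9928 of 21623 genes and a median of -0.05. Without WT 2 there were 25 of 33 and a median of 0.24, against 10544 of 19856 genes and a median of 0.04. Without WT 1 there were 28 of 34 and a median of 0.71, against 9882 of 19821 genes. With both WT 2 and Srp72+/- 3 left out, 13 of 34 had higher fitted values, against 49.6% of the 21280 genes then tested, and the median was -0.21. The transcription factors and cofactors then had 0 of 4 and the thrombin receptors and channel 0 of 3 higher. In that comparison of 3 WT with 2 Srp72+/- libraries 4 of 34 members had an unadjusted p under 0.05, against 1560 of the 21280 genes. The 4 were F2r (-1.08), Selp (-0.82), Tubb1 (3.17) and Cd226 (3.55), and 0 passed the adjusted threshold (adjusted p between 0.533 and 0.679, edgeR quasi-likelihood test). Tubb1 and Cd226 were at or under 4.87 and 1.59 CPM in these 5 libraries. The Tubb1 value of 4.87 CPM was that of Srp72+/- 1, 1 of the 2 Srp72+/- libraries left. Srp72+/- 1 also had the highest neutrophil, erythroid and B cell sums after WT 2. The members whose fitted direction did not turn under any alternative tried were Ppbp, Gp9, Gp6, Itgb3, Nbeal2, Alox12 and Serpine2, and all 7 were higher in Srp72+/-. Among those 7, Ppbp, Itgb3 and Serpine2 had log2 fold changes of 0.00, 0.02 and 0.00 without WT 2 and Srp72+/- 3.

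**Figure D5:**
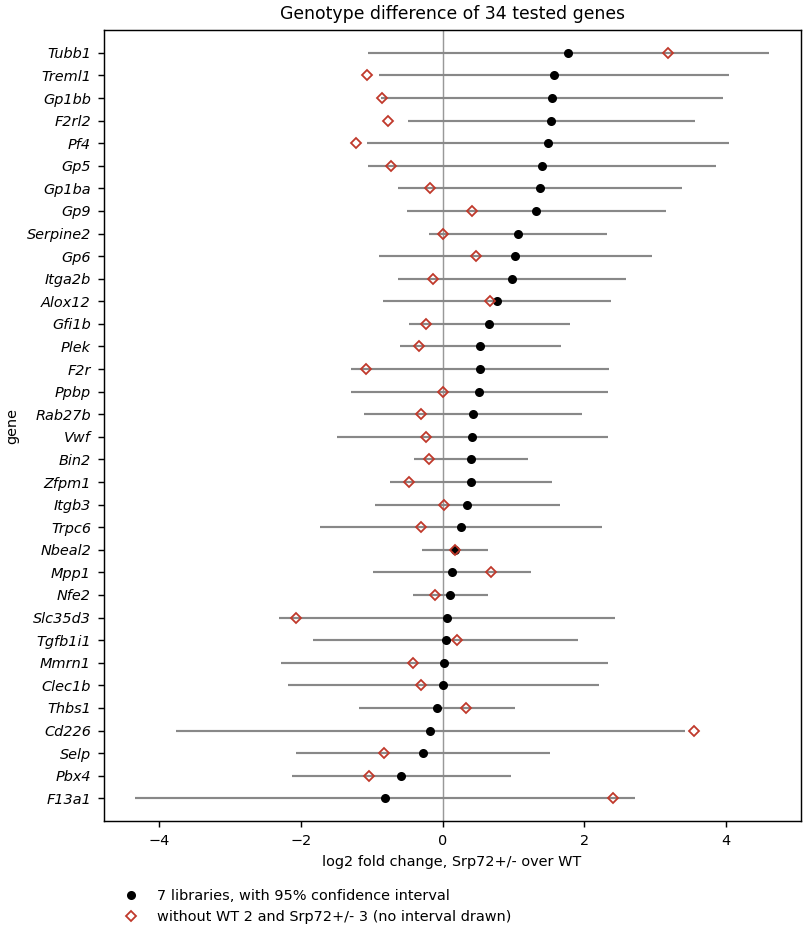
Fitted log2 fold change of Srp72+/- over WT for the 34 tested genes, as points with 95% confidence intervals from all 7 libraries and as open diamonds without WT 2 and Srp72+/- 3. Every interval spans 0, and the diamonds of Pf4 (-1.23), F2r (-1.08) and Treml1 (-1.07) lie on the other side of 0 from their points.

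Other genes of the megakaryocyte programme were set beside the members from a list of 48, all tested. In Srp72+/- the fitted value was higher for 26 and lower for 22 (median log2 fold change 0.06), and 0 passed the test in either direction. Without WT 2 and Srp72+/- 3 these were 18 and 30, with a median of -0.12. In 0 of the 48 was Srp72+/- 3 at least 2-fold above every other library, while WT 2 was at most 0.25 of every other library in 10 (among them Tbxa2r, Tbxas1, Gnaz, Lat, Cavin2, Timp3, Angpt1, Nbea and Arhgap6). Across all tested genes the first pattern was found in 1.42% and the second in 7.73%. The smallest unadjusted p-values among the higher ones belonged to Tpm1 (log2 fold change 0.48), Gata1 (0.93) and Syk (0.51), and among the lower ones to P2rx7 (-1.68), P2ry12 (-1.21) and Lyl1 (-0.45). Gata1, the master regulator of megakaryocytes and red cells, measured 8.41, 18.2, 12.7 and 5.26 CPM across WT, against 33.4, 6.92 and 23.1 CPM across Srp72+/-, highest in the library with the second highest erythroid sum.

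Genes known from aged or platelet-biased HSCs but outside the members had mostly lower fitted values in the heterozygous libraries. Of 16 such genes 5 were higher (0 to 8 with 1 library left out), with a median of -0.33. Without WT 2 and Srp72+/- 3 it was 1 of 16 with a median of -0.59. In 8 of the 16 WT 2 was at most 0.25 of every other library, against 7.73% of all tested genes. Cd38, an ectoenzyme gene, was the one of the 16 whose groups did not overlap, a pattern found in 3.57% of all tested genes. Cd38 measured 29.5, 24.5, 24.6 and 35.3 CPM across WT, against 10.1, 11.3 and 9.10 CPM across Srp72+/-. Its log2 fold change was -1.49 (standard error 0.28, unadjusted p = 0.000565, adjusted p = 0.9998 in the edgeR quasi-likelihood test). DESeq2 called Cd38 (adjusted p = 0.000486), the one call it made in this list, and over the edgeR and voom alternatives its adjusted p lay between 0.487 and 1. Tm4sf1 (-1.31) and Osmr (-1.53) had the next smallest unadjusted p-values. Clu, the clusterin gene, measured 48.0, 4.03, 36.7 and 77.7 CPM across WT, against 31.6, 54.0 and 43.7 CPM across Srp72+/-, with WT 2 low as for Vwf.

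The reads of several members fell largely on transcripts that the annotation does not class as protein-coding. Of Pf4, the retained-intron transcript Pf4-202 took 36.0% to 60.7% of the estimated reads over the libraries and 46.1% in Srp72+/- 3, where the coding transcripts Pf4-201 and Pf4-203 took 22.8% and 31.1%. Of Clec1b, the retained-intron transcript Clec1b-204 took 45.4% to 90.2%. Of Pbx4, a gene of few reads, the protein-coding transcripts took between 0% (WT 2) and 42.2% (WT 1). For Vwf the full-length Vwf-203 took 40.4% to 62.3%, and Vwf-210, classed as a target of nonsense-mediated decay, took 10.6% to 31.6%. Gp6 differed in kind: Gp6-201 had 128 estimated reads in Srp72+/- 3 and 0 in the other 6 libraries, where all reads were assigned to Gp6-202. Since Gp6-201 is the shorter transcript, at 965 against 5900 bases, Gp6 was 1.80 TPM in Srp72+/- 3 and at most 0.26 TPM elsewhere, a wider gap than on the CPM scale. Clec1b overlaps Clec9a (2.56 to 22.8 CPM) and Zfpm1 overlaps Gm20388 (13.97 to 30.6 CPM) on the same strand, and Mpp1 overlaps Dkc1 (57.9 to 93.0 CPM) on the opposite strand, so their division of reads is uncertain. With protein-coding transcripts alone the median log2 fold change of the members was 0.52 and 29 of 34 were higher.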

How the data were processed

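RNA was measured by sequencing in 7 libraries of sorted LT-HSCs, 4 WT and 3 Srp72+/-, grouped by their titles. Sorted cells were lysed, and their RNA was amplified (NuGEN Ovation) and sequenced as Illumina TruSeq libraries, per the labels' protocols. Such amplification can widen the spread of libraries, and, as no molecular identifiers are named, limits from counts cover counting error only. In the deposited tables the authors give expected counts (estimated reads) and TPM per transcript, made with Salmon 0.12.0 per the submitters' processing notes (builds mm10 and GRCm38.p6). The sources used here do not give the annotation release or strand setting.

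Of 136288 transcripts, 136176 matched GENCODE M21 (GRCm38). The 112 others, with 0.0413% to 0.0622% of reads, were dropped. Per gene, estimated counts were summed and rounded, and TPM was summed. Reads shared by overlapping genes are uncertain. Genes were kept by filterByExpr (minimum count 10, minimum total 15), scaled by TMM and tested in edgeR 4.0.16 (quasi-likelihood, robust, no covariate; R 4.3.3), with Benjamini-Hochberg adjustment over 20314 genes at 0.05. The biological coefficient of variation was 0.628. For single members, log2(CPM + 0.1) was permuted over all 35 assignments of libraries to groups (two-sided, exact). The procedure was tested on simulated counts, at the dispersion of these data and at a lower one. Recovery of changed genes was required only at the lower one, so the test does not show the power for these libraries.

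The members, lists and tests were chosen with earlier results of these data known. Named were all members, Srp72, the genes of smallest p in each direction of the other megakaryocyte list (3 each way), the 3 of smallest p in the aged HSC list, and marker genes. Clu and genes overlapping members were named after their values were seen. Alternatives were RLE and upper-quartile scaling, no filter or a stricter one (a mean of 10 counts, and 1 CPM in 3 libraries), DESeq2 1.42.0, voom with quality weights (limma 3.58.1), the replicate number as a block, a length offset, protein-coding transcripts, and libraries left out. The counts of members extreme in WT 2 or Srp72+/- 3, and their CPM and TPM alternatives, were chosen after seeing the data.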

Additional observations from a re-analysis of the deposited data

Results flagged for a closer look

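In 6 members WT 2 lay so far below the other WT libraries that its gap to the nearest of them, divided by the whole range of the 4 WT values in log2(CPM + 0.1), exceeded the 95% critical value of Dixon's ratio for 4 libraries. The ratios were 0.869 for Selp, 0.871 for F2r, 0.85 for Itga2b, 0.855 for Mmrn1, 0.879 for Trpc6 and 0.839 for Zfpm1. The mean of the 15 stem cell identity genes had a ratio of 0.886 in the same library. In all, 36 results were put to this ratio and 7 exceeded it, where chance gives about 1 in 20. The 7 are not independent, since all are low in 1 library. That library, WT 2, was already known to stand apart, so the count is no separate evidence of it.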

How the results depend on the processing

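The count of members past the threshold was 0 under every alternative run, over 34 members or 35 (no filter) except for 33 with the stricter filter (not Tubb1) and without WT 2 (not Cd226), and 31 with DESeq2, which gave no p for F2rl2, Cd226 and F13a1. For all genes it was 0 except with DESeq2 (9), without WT 4 (1) and without WT 2 and Srp72+/- 3 together (1), so with 1 library left out it lay between 0 and 1. The median log2 fold change of the members was 0.41 to 0.43 with other scalings, filters, DESeq2 or a length offset, 0.15 with voom and 0.07 to 0.71 with 1 library left out, and -0.21 without WT 2 and Srp72+/- 3. The replicate number gave no pairing in the data, with correlations of same-numbered deviations of -0.32, -0.16 and 0.002. With a replicate block the median was 1.06, 0 genes passed and 139 had an unadjusted p under 0.05. In the aged HSC list 10 of 16 were then higher, with a median of 0.43, and the value of Gp6 was 2.25 (unadjusted p = 0.041, edgeR).

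Log2 fold changes that turned without WT 2 and Srp72+/- 3 together were those of Vwf (-0.23), Pf4 (-1.23), Gp1ba (-0.18), Gp1bb (-0.86), Gp5 (-0.73), F2rl2 (-0.78), F2r (-1.08), Itga2b (-0.14), Treml1 (-1.07), Plek (-0.34), Rab27b (-0.31), Thbs1 (0.33), Nfe2 (-0.11), Gfi1b (-0.24), Slc35d3 (-2.07), Mmrn1 (-0.42), Clec1b (-0.30), Trpc6 (-0.31), F13a1 (2.41), Zfpm1 (-0.47), Cd226 (3.55) and Bin2 (-0.20). With voom those of Pf4 (-0.25), Gp1bb (-0.12), F2rl2 (-0.065), F2r (-0.50), Treml1 (-0.29), Plek (-0.043), Nfe2 (-0.040), Slc35d3 (-0.84), F13a1 (2.09), Zfpm1 (-0.21) and Cd226 (3.46) turned. With the replicate block Selp (0.60), Slc35d3 (-0.67) and Cd226 (1.01) turned. With the length offset Slc35d3 (-0.039), Clec1b (-0.38), Pbx4 (0.035), Cd226 (0.33) and Tgfb1i1 (-0.088) turned. With protein-coding transcripts Thbs1 (0.023) and Tgfb1i1 (-0.17) turned, and Clec1b turned with RLE scaling (-0.0073), no filter (-0.011) and DESeq2 (-0.0067). The cause was not tested.

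With 1 library left out the direction turned in 22 members. Their ranges were -0.036 to 0.63 for Bin2, -0.63 to 0.25 for Cd226, -0.38 to 0.59 for Clec1b, -2.27 to 1.93 for F13a1, -0.73 to 0.93 for F2r, -0.46 to 1.998 for F2rl2, -0.074 to 0.97 for Gfi1b and -0.51 to 2.06 for Gp1bb. They were -0.36 to 2.60 for Gp5, -0.38 to 0.44 for Mmrn1, -0.31 to 0.62 for Mpp1, -0.080 to 0.19 for Nfe2, -0.88 to 2.19 for Pf4, -0.35 to 0.83 for Plek, -0.66 to 0.046 for Selp and -1.79 to 0.90 for Slc35d3. The remaining ranges were -0.28 to 0.90 for Tgfb1i1, -0.62 to 0.33 for Thbs1, -0.72 to 2.09 for Treml1, -0.14 to 0.64 for Trpc6, -0.28 to 2.63 for Tubb1 and -0.20 to 0.66 for Zfpm1. Members placed with the stem cell genes numbered 7 in the main setting, 14 over all 7 libraries, 12 without WT 2 and Srp72+/- 3, 6 with 1 CPM added and 7 with Spearman's rho, where 4 members nevertheless changed side. Depth limits Tubb1, Cd226, Pdgfa, Gp6, Treml1, Clec1b, Gp1bb and Gp5, each of which had a library with 10 reads or fewer.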
